A study of Mus musculus with 12 samples.

Results

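The genes described here are 10 positive acute-phase genes that liver expresses: the serum amyloid A genes Saa1, Saa2 and Saa3, lipocalin 2 (Lcn2), the orosomucoid genes Orm1, Orm2 and Orm3, haptoglobin (Hp), fibrinogen-like 1 (Fgl1) and Itih4. They were chosen by symbol and matched to Ensembl identifiers, and all 10 were found among the 40551 genes of the count files. All 10 also passed the filter on low counts, which kept 15070 genes.

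Acute-phase proteins are plasma proteins whose synthesis by hepatocytes changes within hours of injury or infection. Interleukin 6 acting through STAT3, and interleukin 1 and tumor necrosis factor acting through NF-κB and C/EBP factors, are the classical inducers in hepatocytes, and glucocorticoids add to their action. Serum amyloid A is the mouse protein with the steepest response, whereas albumin and transferrin are among the negative acute-phase proteins that fall.

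The study asked whether the DNA sensor pathway through STING contributes to inflammation in livers whose hepatocytes die. Total RNA of 12 mouse livers was sequenced, with 3 livers in each of 4 genotypes. Mcl1Δhep mice lack the antiapoptotic gene Mcl1 in hepatocytes through Cre recombinase under the albumin promoter, which leaves Mcl1 in the other cells of the liver. Sting1-/- mice carry a germline deletion of Sting1, so that every cell type is affected, and Mcl1Δhep Sting1-/- mice carry both alterations, while WT mice carry neither. Transcriptomes of WT and Mcl1Δhep livers are described for an age of 2 months, no age is given beside the sequenced livers of the other genotypes, and both sexes were used. No pooling of animals is mentioned, and since labels name the samples only by genotype and number, p-values measure the spread between these samples.

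The libraries held 28826367 to 45266387 counts on genes. Mcl1 was lower in every Mcl1Δhep liver than in every WT liver, with 25.0 to 34.0 against 90.2 to 104 CPM (counts scaled to library size with edgeR's TMM factors). Its log2 fold change was −1.77 with a standard error of 0.16 (edgeR's quasi-likelihood test, adjusted p = 0.000605). Sting1 had 1.16 to 2.70 CPM in Sting1-/-, 1.90 to 2.53 in Mcl1Δhep Sting1-/-, 2.11 to 2.53 in WT and at least 3.67 in Mcl1Δhep livers. Counts on that gene thus do not show its deletion, and the genotypes are those of the labels. Y-linked genes were expressed in WT replicates 2 and 3 and in Mcl1Δhep Sting1-/- replicate 1 and not in the other 9 libraries. Sex is thus unbalanced between genotypes, since no Mcl1Δhep and no Sting1-/- liver had Y-linked expression and WT replicate 1 alone of WT lacked it. In the comparisons with WT or with Mcl1Δhep Sting1-/- livers, genotype and sex cannot be fully told apart. The hepatocyte markers were high everywhere, with a sum of 102971 to 166674 CPM. Mcl1Δhep replicate 3 also carried transcripts of exocrine pancreas (9205 CPM, at most 32.5 elsewhere) and skeletal muscle (1373 CPM, at most 7.68 elsewhere).

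One library stood apart for the acute-phase genes themselves. WT replicate 2 had the highest value of all 12 livers for 8 of the 10 genes, whereas it was highest for 10.7% of the 12559 genes with a mean of at least 1 CPM. The exceptions were Lcn2, which was highest in Mcl1Δhep replicate 2, and Orm3, which was highest in WT replicate 1. Together the 10 genes took 13576 CPM in WT replicate 2 and 4374 to 7060 CPM in the other 11 livers. Because this liver belongs to the control group, the main comparisons with WT are given with and without it.

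The 10 genes lie at 6 places in the genome (GRCm39). Saa1 (ENSMUSG00000074115, chromosome 7, 46389916 to 46392547), Saa2 (ENSMUSG00000057465, 46401214 to 46403737) and Saa3 (ENSMUSG00000040026, 46361422 to 46365576) are neighbors. Orm1 (ENSMUSG00000039196, chromosome 4, 63261052 to 63272189), Orm3 (ENSMUSG00000028359, 63274208 to 63277748) and Orm2 (ENSMUSG00000061540, 63280686 to 63284115) form a second cluster. The others are single genes: Lcn2 (ENSMUSG00000026822, chromosome 2, 32274645 to 32278264), Hp (ENSMUSG00000031722, chromosome 8, 110301759 to 110305804), Fgl1 (ENSMUSG00000031594, chromosome 8, 41644457 to 41668205) and Itih4 (ENSMUSG00000021922, chromosome 14, 30608378 to 30624310). Saa1 and Saa2 both overlap the long noncoding RNA Gm74180 and Orm1 overlaps the noncoding gene Gm52743 and the pseudogene Gm11212, so some counts at these genes could belong to the other transcript.

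The 2 clusters hold near copies of the same gene, which matters for how far their counts can be told apart. The coding sequences of Saa1 and Saa2 were identical at 95.1% of 366 aligned bases, those of Saa1 and Saa3 at 78.0%, and those of Orm1 and Orm2 at 89.9% of 621. Of all 50-base windows of the Saa1 transcript, 7.20% also occurred in Saa2, and 19.1% of those of Orm1 occurred in Orm2. The 30-base coding stretches within 1 exon that differ most between the pairs follow, with differing bases in capitals. The Saa1 stretch is at chr7:46390761-46390790 (minus strand) and that of Saa2 at chr7:46402870-46402899 (plus strand), both in exon 3, and they differ at 6 positions. The Orm1 stretch is at chr4:63263328-63263357 and that of Orm2 at chr4:63281203-63281232, both in exon 2 on the plus strand, and they differ at 10 positions.
Saa1: tgacatgaaggaagctAActggaaaAaCTC
Saa2: tgacatgaaggaagctGGctggaaaGaTGG
Orm1: tGggtgcAgctTtcAGaaaAcTCgaGtacA
Orm2: tTggtgcGgctGtcCTaaaCcCTgaTtacC

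The promoters show the same kinship. A C/EBP motif (TTNNGNAA on either strand) was present within the 250 bases before the canonical start site in 6 of the 10 genes and in 37.0% of 21594 protein-coding genes. The STAT motif TTCNNNGAA was present in 0 of the 10 and in 7.73% of all, and the NF-κB consensus was present in 1 of the 10, Lcn2, and in 7.60% of all. A match of letters is a description and not evidence of binding. The following stretches hold the C/EBP match (in capitals), to show how near the copies are, at chr7:46392568-46392597 (minus strand) for Saa1, chr7:46401063-46401092 (plus strand) for Saa2, chr4:63262665-63262694 for Orm1, chr4:63280555-63280584 for Orm2 and chr4:63274263-63274292 for Orm3 (all plus strand), and at chr2:32277949-32277978 (minus strand) for Lcn2. The Saa1 and Saa2 stretches differ at 1 of 30 bases, those of Orm1 and Orm2 at 1, and those of Orm1 and Orm3 at 3. The match in capitals begins 39 bases before the canonical start site of Saa1 and 140 before that of Saa2. It begins 76, 120 and 90 bases before those of Orm1, Orm2 and Orm3, and 158 before that of Lcn2. The stretches of Orm1, Orm3 and Lcn2 lie inside the gene spans given above, since their canonical transcripts start inside those spans. Orm1 and Orm2 each hold a second match, 64 and 108 bases before their canonical start sites, which begins within the printed stretch and is not in capitals.
Saa1: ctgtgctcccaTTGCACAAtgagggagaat
Saa2: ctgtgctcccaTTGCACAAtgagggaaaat
Orm1: gagggaacattTTGCGCAAgacatttccca
Orm2: gagagaacattTTGCGCAAgacatttccca
Orm3: gagggaacattTTGCACAAgacatttatca
Lcn2: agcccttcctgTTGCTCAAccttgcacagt

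By level, the genes spanned a wide range. On the scale of TPM, in which counts are divided by transcript length and scaled to a fixed sum per library, the median over 12 livers was 3286 for Hp, the plasma protein that binds free hemoglobin. Itih4, an inter-alpha-trypsin inhibitor heavy chain, had a median of 1676 TPM and Orm1 had 1635 TPM. Fgl1, a hepatocyte-secreted protein related to fibrinogen, followed at 544 TPM. The 6 other genes were lower, with Saa1 at 89.6 TPM, Orm2 at 60.6, Saa2 at 56.7, Lcn2 at 20.4, Saa3 at 12.04 and Orm3 at 6.44. The neighbors Itih4 and Orm1 overlapped across livers, as did Saa1, Orm2 and Saa2. With merged exon lengths in place of the canonical transcript, Orm2 moved above Saa1, and the other places in the order were the same.

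**Figure D1:**
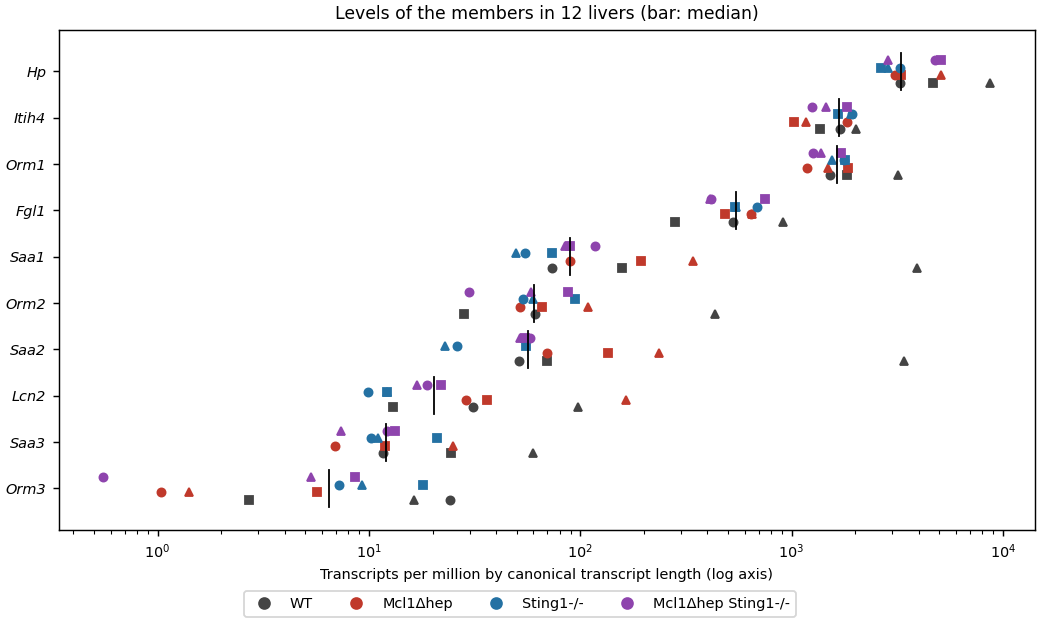
Level of each gene in TPM (log axis) in each of the 12 livers, colored by genotype, with a bar at the median. Hp, Itih4, Orm1 and Fgl1 lie at 282 TPM or more in every liver, and the points far to the right for Saa1 and Saa2 (3915 and 3416 TPM) are WT replicate 2.

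Saa1 and Saa2 encode the apolipoproteins of the acute phase that circulate on high-density lipoprotein. For Saa1 the WT livers had 25.9, 1474 and 59.4 CPM (replicates in order, here and for the other genes) and the Mcl1Δhep livers 28.4, 132 and 75.6 CPM. It had 21.0, 18.8 and 27.8 CPM in the Sting1-/- livers and 39.9, 27.8 and 31.9 CPM in the Mcl1Δhep Sting1-/- livers. The value of WT replicate 2 was 11.1 times the next highest. Apart from it the groups overlapped except that all Mcl1Δhep livers exceeded all Sting1-/- livers, narrowly at 28.4 against 27.8 CPM. That pair of genotypes differs in both genes and was not compared over all genes, so its separations here and below have no share beside them. Saa2 had 15.6, 1108 and 22.6 CPM in WT, 19.1, 78.4 and 45.6 in Mcl1Δhep, 8.58, 7.46 and 17.999 in Sting1-/- and 17.0, 14.5 and 16.8 in Mcl1Δhep Sting1-/- livers. Every Mcl1Δhep liver was therefore above every Mcl1Δhep Sting1-/- and every Sting1-/- liver for Saa2, by a narrow margin in Mcl1Δhep replicate 1. The ratio of Saa1 to Saa2 counts stayed between 1.33 and 2.62 in all 12 livers, so both genes moved together.

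Saa3, the serum amyloid A that macrophages and adipocytes also make, moved less. It had 5.46, 30.1 and 12.3 CPM in WT, 2.92, 12.9 and 6.20 in Mcl1Δhep, 5.21, 5.52 and 10.5 in Sting1-/- and 5.48, 3.22 and 6.35 in Mcl1Δhep Sting1-/- livers. All 4 groups overlapped. Saa1 counts were 49.0 times Saa3 counts in WT replicate 2 and 2.64 to 12.2 times elsewhere, so the excess of that liver was far greater for Saa1 than for Saa3.

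Lcn2 encodes a siderophore-binding protein that injured hepatocytes secrete and that neutrophils store in granules. It had 13.2, 44.5 and 5.91 CPM in WT and 11.1, 77.4 and 17.0 CPM in Mcl1Δhep livers. It had 4.57, 5.55 and 5.53 CPM in Sting1-/- livers and 7.72, 6.65 and 9.47 CPM in Mcl1Δhep Sting1-/- livers. The Mcl1Δhep livers were all above the Mcl1Δhep Sting1-/- livers, which in turn were all above the Sting1-/- livers, and the Sting1-/- livers were also below all WT livers.

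The orosomucoids are α1-acid glycoproteins that bind drugs and lipids in plasma. Orm1, the abundant one, had 583, 1311 and 755 CPM in WT, 407, 629 and 789 in Mcl1Δhep, 739, 637 and 735 in Sting1-/- and 468, 493 and 669 in Mcl1Δhep Sting1-/- livers. Orm2 had 22.1, 168 and 10.9 CPM in WT, 16.8, 43.1 and 26.4 in Mcl1Δhep, 21.1, 23.1 and 36.4 in Sting1-/- and 10.4, 19.6 and 31.9 in Mcl1Δhep Sting1-/- livers. For both genes the groups overlapped once WT replicate 2 was set aside, and Orm1 counts were 7.81 times Orm2 counts in that liver and 14.6 to 69.1 times elsewhere. Orm3 had 9.08, 6.55 and 1.09 CPM in WT, 0.352, 0.581 and 2.37 in Mcl1Δhep, 2.94, 3.71 and 7.26 in Sting1-/- and 0.200, 1.85 and 3.28 in Mcl1Δhep Sting1-/- livers. Its counts were 6 to 344 per library, and it was lower in all Mcl1Δhep livers than in all Sting1-/- livers, a pair not compared over all genes.

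Hp, Fgl1 and Itih4, like Orm1, spanned a narrow range, with the highest of 12 livers 3.51, 3.23, 1.89 and 3.22 times the lowest. Hp had 2057, 5838 and 3117 CPM in WT, 1734, 3503 and 2286 in Mcl1Δhep, 2220, 1920 and 1781 in Sting1-/- and 2897, 1664 and 3244 in Mcl1Δhep Sting1-/- livers. Fgl1 ranged from 161 CPM (WT replicate 3) to 519 (WT replicate 2), and Itih4 from 1625 CPM (Mcl1Δhep replicate 3) to 3078 (WT replicate 2). For Fgl1 and Hp the 4 genotypes overlapped. For Itih4 the Sting1-/- livers were all above the Mcl1Δhep livers, a pair not compared over all genes.

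**Figure D2:**
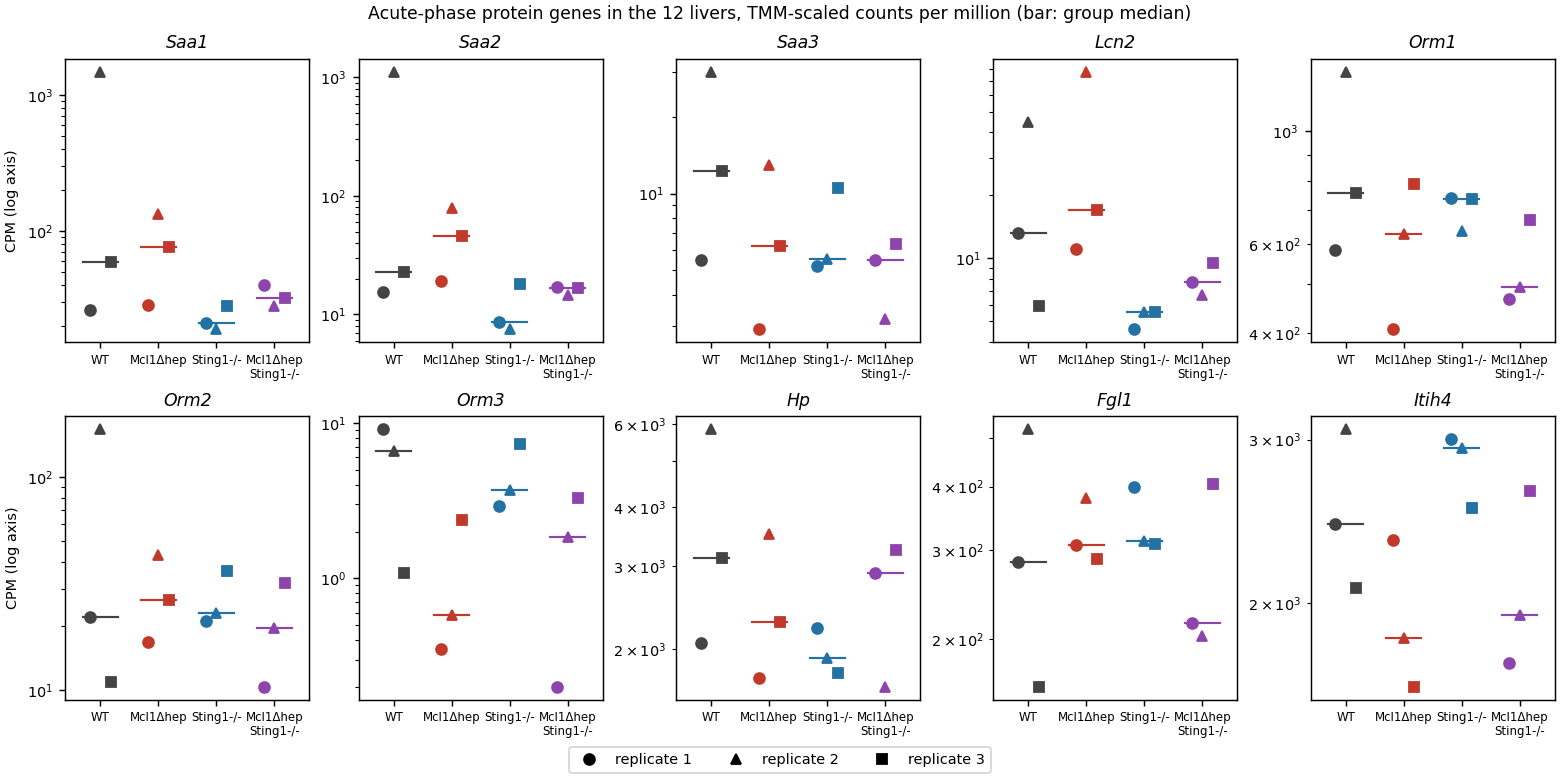
CPM of each gene (log axis, a separate scale per panel) in the 12 livers by genotype, with replicate number as symbol and the group median as a bar. The WT triangle, replicate 2, is the top point in 8 of the 10 panels, and the Mcl1Δhep triangle is the top point for Lcn2 at 77.4 CPM.

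The excess of WT replicate 2 was graded. Relative to the median of the other 11 livers it was 65.3-fold for Saa2 and 51.9-fold for Saa1, 7.59-fold for Orm2, 5.76-fold for Lcn2 and 5.45-fold for Saa3. It was 2.76-fold for Orm3, 2.63-fold for Hp, 2.06-fold for Orm1, 1.69-fold for Fgl1 and 1.32-fold for Itih4. Of the 10 genes, 8 were at least 2-fold, against 2.05% of the 12559 genes. Most of the genes with a larger ratio than Saa2, which was 16th, were shared with WT replicate 3, such as the major urinary protein gene Mup7 and the arachidonic acid hydroxylase gene Cyp4a12a, both known for male-biased expression. Compared only with the other 2 livers that expressed Y-linked genes, Saa2 was 49.0-fold above the higher of them and ranked first among 12554 genes. In the same comparison Saa1 (24.8-fold) ranked 3rd, Orm2 (15.4-fold) 5th, Orm3 (6.02-fold) 10th and Lcn2 (5.76-fold) 12th.

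Other acute-phase genes in WT replicate 2 followed in part. Of 20 further positive acute-phase genes with a mean of at least 1 CPM, 4 were highest in that liver (Saa4, Serpina3n, Itih3 and Cfb) and 3 were lowest (Cd14, Mt2 and Il1rn). Over all genes these shares were 10.7% and 10.4%. Saa4, the constitutive serum amyloid A of the same cluster, had 290 CPM there and a median of 113 elsewhere. Serpina3n, a serine protease inhibitor, had 542 CPM, 1.66 times the median of the others. Of 8 negative acute-phase genes, 4 were lowest there, against 10.4% of all genes, and these were Alb, Ahsg, Apom and Serpina6. The other 4 were slightly above the median of the other livers, at 1.07 (Ttr), 1.11 (Rbp4), 1.04 (Trf, transferrin) and 1.21 times (Apoa1). The median log2 ratio over the 8 genes was −0.079. Alb, albumin, had 59841 CPM in that liver and a median of 92425 CPM in the others.

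**Figure D3:**
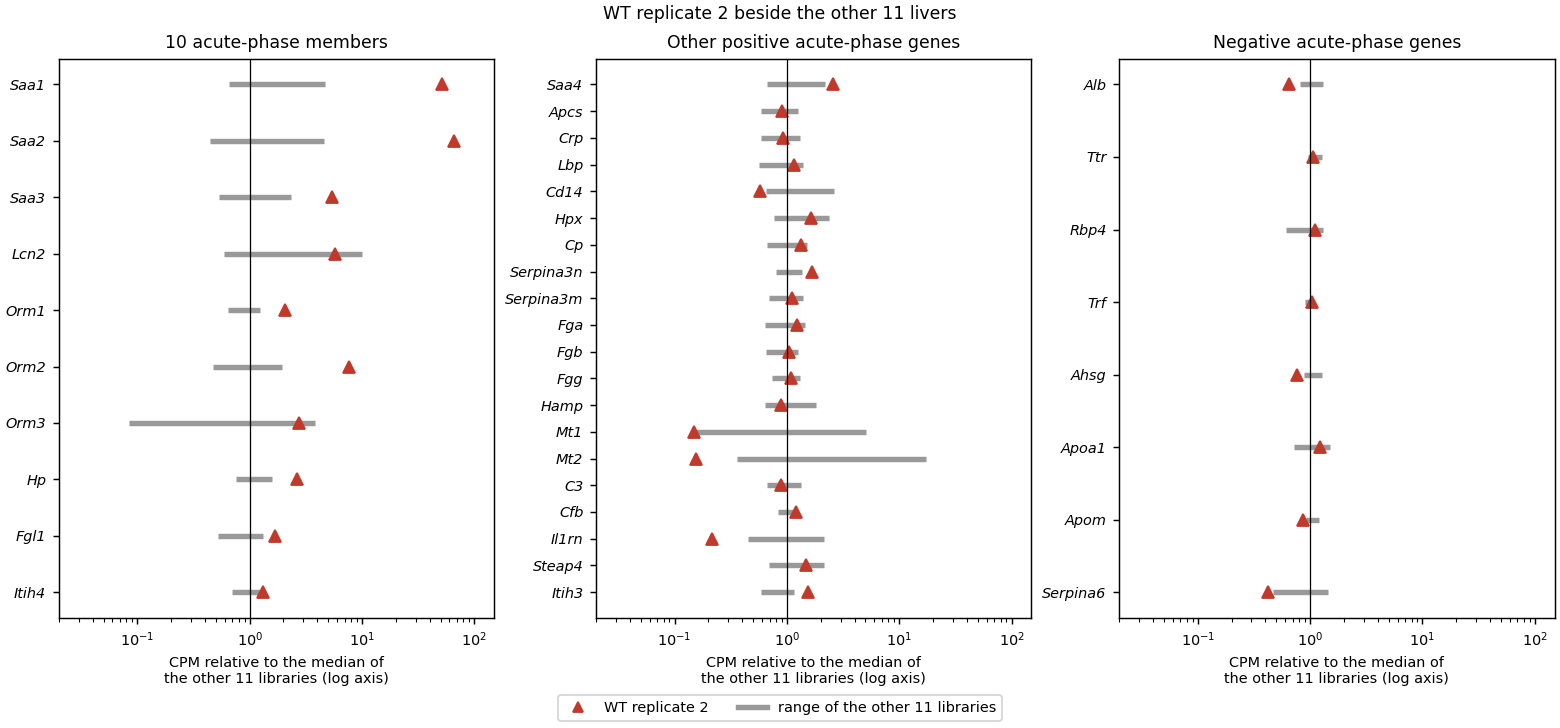
CPM of WT replicate 2 (triangles) and the range of the other 11 livers (bars), both divided by the median of those 11 livers (log axis), for the 10 genes, further positive and negative acute-phase genes. Saa1 and Saa2 lie at 51.9 and 65.3, far outside the bars, while Alb lies below its bar.

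Of the upstream genes with a mean of at least 1 CPM, that liver was highest for 0 of 6 of the interleukin 6 family, 1 of 8 of JAK-STAT3 signaling, 1 of 14 of interleukin 1, tumor necrosis factor and NF-κB, and 3 of 8 liver transcription factors (Cebpa, Cebpb and Foxa2). Over all genes its share of highest values was 10.7%. Il6 had 0 to 3 counts in every library and 0 in WT replicate 2. Socs3, a feedback inhibitor that STAT3 induces, had 7.77 CPM there and 6.47 to 20.2 elsewhere, and Stat3 had 125 CPM, within the 94.4 to 148 of the others. Il1b, at 0.801 CPM, was lowest of all livers, and Tnf had 0.178 CPM. The receptor gene Il1r1 (49.1 CPM, median 20.1 elsewhere) and Cebpb, which encodes a C/EBP factor (76.4 CPM, 25.5 to 71.9 elsewhere), were highest there. Apcs and Crp, pentraxin genes of the acute phase, were within the range of the other livers. Neutrophil markers summed to 4.72 CPM there and 3.30 and 5.42 in the other WT livers, 7 of 12 macrophage markers were lowest (10.4% of all genes), and adipocyte markers summed to 23.5 CPM against 7.02 and 7.40.

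The first comparison asks about loss of Mcl1 in hepatocytes, in groups that also differ in how many livers had Y-linked expression. Between Mcl1Δhep and WT livers, edgeR's quasi-likelihood test called 0 of the 10 genes at an adjusted p under 0.05 and 20.2% of all genes (DESeq2 called 0 of the 10 and 25.9% of all), and 3 had an unadjusted p under 0.05 (36.9% of all genes). The sign of the difference for Saa1, Saa2 and Orm2 rested on WT replicate 2. On the log2 scale Saa1 differed by −2.72 (standard error 1.13, edgeR adjusted p = 0.103) with that liver and 0.88 (0.52, adjusted p = 0.288) without it. Saa2 went from −3.00 (1.24, adjusted p = 0.104) to 1.31 (0.52, adjusted p = 0.127), and Orm2 from −1.22 to 0.79. Lcn2 went from 0.73 (0.71, adjusted p = 0.484) to 1.87 (0.70, adjusted p = 0.113). The median over the 10 genes was −0.84 with all livers and 0.25 without WT replicate 2, beside a median over all genes of −0.01 in the latter fit, in which 7.99% of genes passed.

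Orm3 kept a negative difference in this comparison, at −2.37 (standard error 0.94, edgeR adjusted p = 0.0906), and −2.25 (1.04, adjusted p = 0.18) without WT replicate 2. With Y-linked expression as a covariate it was −3.65 (edgeR adjusted p = 0.0388), in a fit that called 1 of the 10 and 10.2% of all genes. WT replicate 1, the only WT liver without Y-linked expression, had the highest Orm3 value (9.08 CPM). The 3 livers of each group overlapped for all 10 genes, while they did not for 33.3% of all genes. For Hp the difference was −0.55 (95% interval −1.37 to 0.27), for Fgl1 0.02 (−0.79 to 0.82), for Itih4 −0.39 (−0.85 to 0.08) and for Orm1 −0.54 (−1.19 to 0.12). Without WT replicate 2 these were −0.05, 0.54, −0.23 and −0.14.

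**Figure D4:**
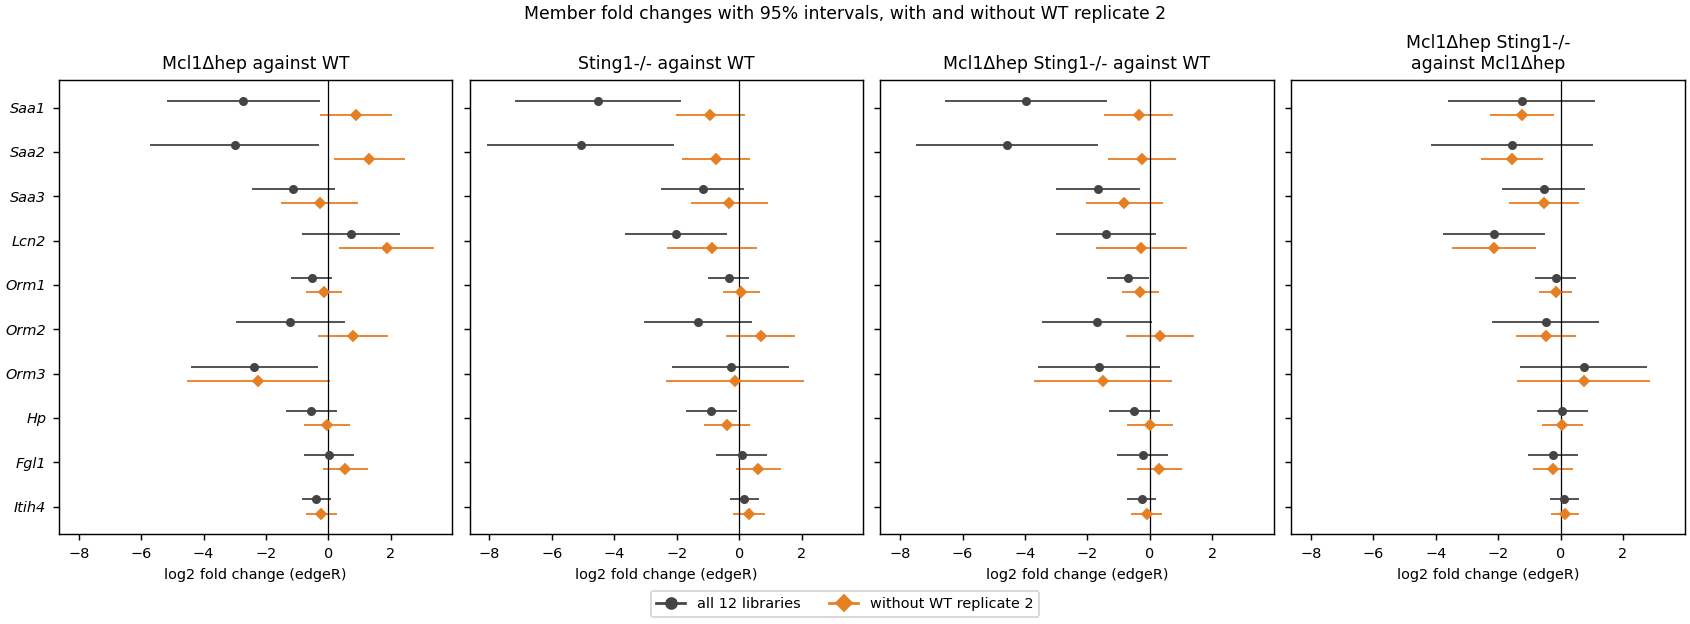
Log2 fold changes from edgeR with 95% intervals for the 10 genes in 4 comparisons, with all 12 livers (circles) and without WT replicate 2 (diamonds). In the 3 comparisons with WT, the values of Saa1 and Saa2 move toward or past 0 without that liver, and in the comparison of Mcl1Δhep Sting1-/- with Mcl1Δhep livers the values are alike and the intervals of Saa1 and Saa2 are shorter.

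The second comparison asks what loss of Sting1 changes in livers that lack Mcl1 in hepatocytes. Among the livers compared, only Mcl1Δhep Sting1-/- replicate 1 had Y-linked expression. In the livers labelled Mcl1Δhep Sting1-/- against Mcl1Δhep, 0 of 10 genes passed (0.0% of all genes), 1 had an unadjusted p under 0.05 (20.6% of all genes), and DESeq2 called 0 of the 10 and 4.91% of all genes. Lcn2 was lower in all 3 livers, at 7.95 ± 1.42 against 35.2 ± 36.7 CPM (mean ± SD over 3 livers). The log2 fold change was −2.14, with a standard error of 0.75 and an adjusted p of 0.163 in edgeR. Saa2 was also lower without overlap, at 16.1 ± 1.35 against 47.7 ± 29.7 CPM (−1.57, standard error 1.19, edgeR adjusted p = 0.468). These were the 2 genes of 10 without overlap in this comparison, as were 18.2% of all genes, and 9.28% of all genes were lower in that way.

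WT replicate 2 belongs to neither group and enters this comparison through the filter, the scaling, the shared estimate of the spread and the adjustment. Without that liver, the standard error fell to 0.46 for Saa1 (−1.24, edgeR adjusted p = 0.206), 0.45 for Saa2 (−1.56, adjusted p = 0.173) and 0.61 for Lcn2 (−2.14, adjusted p = 0.172). Mcl1Δhep replicate 2 set much of the Lcn2 difference, which was −0.82 without it (adjusted p = 0.668) and −2.57 without Mcl1Δhep replicate 1 (adjusted p = 0.0332), where 1 of the 10 and 20.2% of all genes passed. The other genes differed by −0.55 (Saa3) to 0.74 (Orm3), and Hp by 0.05 (95% interval −0.76 to 0.87).

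Mcl1Δhep replicate 2 was the highest of the 11 livers other than WT replicate 2 for 6 of the 10 genes (Saa1, Saa2, Saa3, Lcn2, Orm2 and Hp), against 20.7% of all genes. That liver also had the most neutrophil marker transcripts, with a sum over 13 genes of 25.4 CPM. The sum was 13.7 and 11.4 CPM in Mcl1Δhep replicates 1 and 3, 6.82 to 8.02 in Mcl1Δhep Sting1-/- livers, 3.08 to 8.44 in Sting1-/- livers and 3.30 to 5.42 in WT livers. S100a8 and S100a9, which encode calprotectin, were highest there at 6.43 and 10.95 CPM, and Ly6g was at 0 in 9 of 12 livers with at most 0.0949 CPM. Small structured RNAs took 2.37% of counts in that liver and 0.172 to 1.36% in the others. With this share as a covariate, the Lcn2 difference was −1.18 (adjusted p = 0.570) between Mcl1Δhep Sting1-/- and Mcl1Δhep livers, and its sign turned between Mcl1Δhep and WT livers. The part of neutrophil RNA in the Lcn2 values was not tested, and in bulk tissue fewer cells of a type and less RNA per cell cannot be told apart. WT replicate 2 had 44.5 CPM of Lcn2 at a neutrophil sum within the range of the other WT livers.

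**Figure D5:**
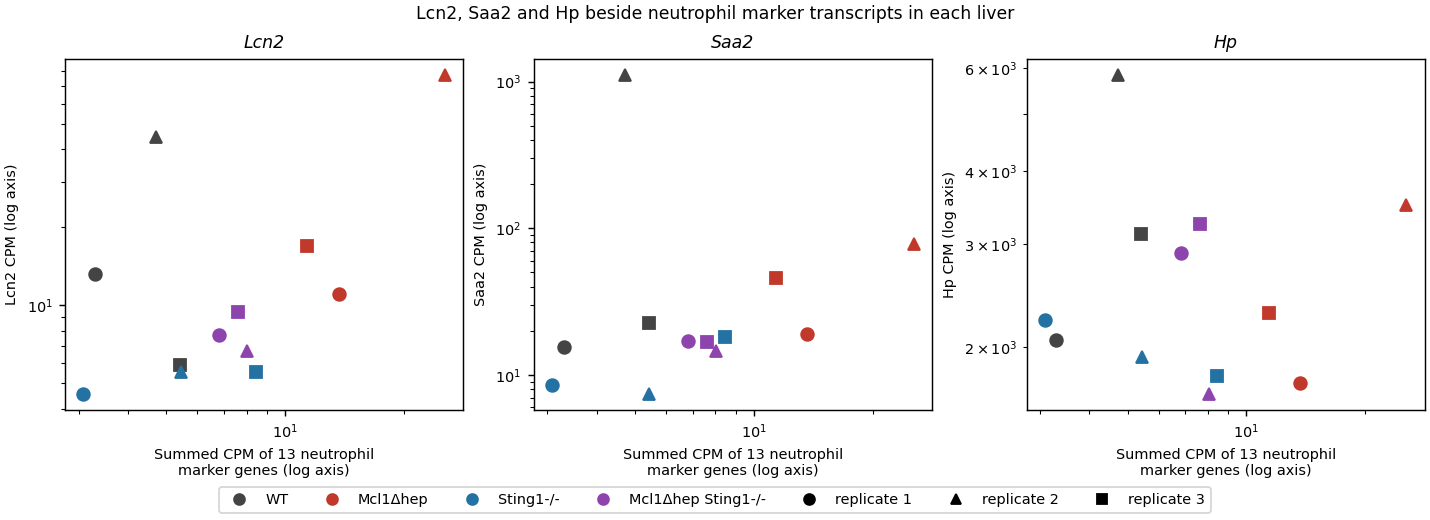
Lcn2, Saa2 and Hp (CPM, log axis) against the summed CPM of 13 neutrophil marker genes (log axis) in each liver, colored by genotype with replicate as symbol. Mcl1Δhep replicate 2 lies at the right (25.4 CPM of markers), and WT replicate 2 lies at the top for Saa2 and Hp with 4.72 CPM of markers.

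The third comparison gives the effect of Mcl1 loss in livers labelled Sting1-/-. Here too only Mcl1Δhep Sting1-/- replicate 1 had Y-linked expression. Between Mcl1Δhep Sting1-/- and Sting1-/- livers, 0 of 10 genes passed (0.803% of all genes, and 0.337% without WT replicate 2), DESeq2 called 0 of the 10 and 3.16% of all genes, and 0 had an unadjusted p under 0.05 (11.3% of all genes). Lcn2 was higher in all 3 livers, at 7.95 ± 1.42 against 5.21 ± 0.558 CPM, and it was the 1 gene of 10 without overlap, as were 22.3% of all genes, 11.5% in that direction. Its log2 fold change of 0.61 (standard error 0.74, edgeR adjusted p = 0.845) was smaller than its standard error. Saa1 and Saa2 differed by 0.56 and 0.50, and Itih4 by −0.43 (95% interval −0.89 to 0.04).

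The fourth comparison asks about Sting1 loss where Mcl1 is intact, again in groups that differ in how many livers had Y-linked expression. Between livers labelled Sting1-/- and WT livers, 0 of 10 genes passed (0.0% of all genes) in edgeR, and 4 had an unadjusted p under 0.05 (5.45% of all genes), namely Saa1, Saa2, Lcn2 and Hp. DESeq2 called 2 of them, Saa1 (−4.53, adjusted p = 0.0323) and Saa2 (−5.08, adjusted p = 0.0205), beside 0.326% of all genes. All of these leaned on WT replicate 2. In edgeR, Saa1 was −4.53 (standard error 1.22, adjusted p = 0.643) with it and −0.92 (0.51, adjusted p = 1) without it, and Saa2 was −5.07 and −0.75. Lcn2 was lower in every Sting1-/- liver than in every WT liver, as were 5.46% of all genes (12.5% in either direction), and its difference was −2.02 (0.75, adjusted p = 0.813) with and −0.88 (0.66) without WT replicate 2. Hp was −0.90 with and −0.39 without it. The median over the 10 genes was −1.03 and −0.23.

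The Mcl1Δhep Sting1-/- livers had a negative log2 fold change against WT for all 10 genes, of which 0 passed (1.82% of all genes) and 4 had an unadjusted p under 0.05 (14.4% of all genes). Saa1 was −3.97 (standard error 1.19, edgeR adjusted p = 0.139) and Saa2 −4.57 (1.34, adjusted p = 0.128). DESeq2 called both (adjusted p = 0.0191 and 0.0098), beside 4.72% of all genes. The livers overlapped for all 10 genes and did not for 22.8% of all genes. Without WT replicate 2, where 0 of the 10 and 0.201% of all genes passed, Saa1 and Saa2 were −0.36 and −0.24, 3 of the 10 values were positive, and the median went from −1.53 to −0.26. Every comparison with WT shares the same 3 control livers.

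Whether the Mcl1 effect differed between intact and deleted Sting1 was tested as an interaction, the Mcl1 effect in livers labelled Sting1-/- minus that in the livers with Sting1. It passed for 0 of 10 genes and for 0.0% of all genes in edgeR, with 0 of 10 and 14.4% at an unadjusted p under 0.05, and DESeq2 called 0 of the 10 and 1.2% of all genes. Saa1 had 3.28 (standard error 1.54, adjusted p = 0.354) and −0.32 (0.69, adjusted p = 0.882) without WT replicate 2. Lcn2 had −0.12 (1.02, adjusted p = 0.966) and −1.26 (0.90, adjusted p = 0.626).

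Other acute-phase and upstream genes gave calls between Mcl1Δhep and WT livers. Of 21 further positive acute-phase genes, edgeR called 4 higher and 2 lower, with a median log2 fold change of −0.01. In either direction it called 20.2% of all genes. The largest were Mt2 (4.29, adjusted p = 0.0113) and Mt1 (2.69, adjusted p = 0.0387), the metallothioneins that bind zinc, and Il1rn (2.19, adjusted p = 0.00133), the antagonist of the interleukin 1 receptor. Mt2 and Mt1 were highest in Mcl1Δhep replicate 2 (106 and 343 CPM) and next highest in Sting1-/- replicate 2. WT replicate 2 had 0.949 CPM of Mt2, the lowest of all livers, and 10.2 CPM of Mt1. Il1rn had 3.06, 1.07 and 2.21 CPM in WT and 8.73, 10.6 and 9.74 CPM in Mcl1Δhep livers. Saa4 and Crp were the 2 lower genes, named after their values were seen. Saa4 had 75.5 to 104 CPM in Mcl1Δhep livers and 132 to 290 in WT (−1.33, adjusted p = 0.00533), and −1.10 (adjusted p = 0.0267) without WT replicate 2. Without that liver, 2 of the 21 passed as higher and 2 as lower, beside 7.99% of all genes in either direction.

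Of the interleukin 6 family, 7 of 12 genes were tested, and edgeR called 2 higher and 1 lower, beside 20.2% of all genes. Clcf1, a ligand of the family, was higher (2.30, adjusted p = 0.00669), Osmr, the oncostatin M receptor, was higher (0.88, adjusted p = 0.03), and Lifr, the receptor of leukemia inhibitory factor, was lower (−1.17, adjusted p = 0.0283). None of the 9 JAK-STAT3 genes passed (2 at an unadjusted p under 0.05), with Socs3 at 0.07 and Stat3 at −0.03, and 1 of the 9 passed as lower without WT replicate 2. Among 15 genes of interleukin 1, tumor necrosis factor and NF-κB, 3 were higher and 1 lower (20.2% of all genes in either direction). The inhibitor Tnfaip3 (1.30, adjusted p = 0.00608) and the subunits Relb (1.11, adjusted p = 0.0224) and Nfkb2 (1.07, adjusted p = 0.0131) were the higher ones. Il1b (1.05, adjusted p = 0.102) and Tnf (1.44, adjusted p = 0.0515) lay above every WT liver in all Mcl1Δhep livers without passing. Of the 15 genes, 6 lay higher in this way and 1 lower, and 33.3% of all genes did not overlap. Without WT replicate 2, 1 gene of each of the interleukin 6 and interleukin 1 lists passed as higher (Clcf1 and Tnfaip3) and none of these lists as lower. In that fit 7.99% of all genes passed.

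Of 8 liver transcription factors, edgeR called 4 lower and 0 higher between Mcl1Δhep and WT livers, among them Foxa2 (−1.22, adjusted p = 0.00269) and Cebpa (−1.04, adjusted p = 0.00563), and 4 passed as lower without WT replicate 2. Over all genes 20.2% passed in that comparison, and 7.99% without WT replicate 2. Cebpb had −0.30 (adjusted p = 0.626) and Cebpd 0.95 (adjusted p = 0.0844), and Apcs 0.45 (adjusted p = 0.172). Of 5 glucocorticoid targets, the kinase gene Sgk1 was higher (1.30, adjusted p = 0.0114, and 0.0521 without WT replicate 2), and 0 of 8 negative acute-phase genes passed (1 at an unadjusted p under 0.05). Against WT, Mcl1Δhep Sting1-/- livers had Il1rn higher (1.25, adjusted p = 0.0476) and Foxa2 lower (−1.02, adjusted p = 0.0206), and without WT replicate 2 neither passed (adjusted p = 0.0776 and 0.0928). There 1.82% of all genes passed, and 0.201% without that liver. In the other 4 comparisons 0 genes of these lists passed in edgeR.

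Cell type markers were compared too, beside calls for 20.2% of all genes between Mcl1Δhep and WT livers. Between Mcl1Δhep and WT livers, edgeR called higher 6 of 9 tested neutrophil, 8 of 12 macrophage, 4 of 7 stellate or fibroblast, 2 of 6 adipocyte and 1 of 6 lymphocyte markers, and 1 each of the 1 skeletal muscle and 2 pancreas markers tested. Skeletal muscle and pancreas marker sums were high in Mcl1Δhep replicate 3 alone (1373 and 9205 CPM, at most 1.04 and 12.1 in the other Mcl1Δhep livers). In the same comparison edgeR called 2 of 8 hepatocyte markers lower, and 0 of 5 biliary and 0 of 6 endothelial markers passed in either direction (0 at an unadjusted p under 0.05). Without WT replicate 2 the higher calls were 3 of 9 neutrophil, 5 of 12 macrophage, 3 of 7 stellate, 3 of 7 adipocyte and 0 lymphocyte, skeletal muscle or pancreas markers. In that fit 2 of 8 hepatocyte markers were called lower, and in either direction 7.99% of all genes were called. Between Mcl1Δhep Sting1-/- and Sting1-/- livers 2 of 12 macrophage markers were higher, with and without WT replicate 2 (0.803% and 0.337% of all genes called). Between Mcl1Δhep Sting1-/- and WT livers 2 were higher with that liver and 0 without it (1.82% and 0.201% of all genes called). In the same comparison 1 of 8 hepatocyte markers was called lower with that liver and 0 without it. Adipocyte markers summed to 26.0 to 74.3 CPM in Mcl1Δhep and 7.02 to 23.5 CPM in WT livers. In livers labelled Sting1-/- they summed to 7.39 to 10.3 CPM, and to 10.5 to 44.9 CPM with both deletions. The part of these cells in the values of Saa3 and Lcn2 was not tested.

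Genes that followed the 10 across livers were sought by the Pearson correlation with the mean of their standardized log2 CPM over the 12 libraries. The 5 highest were Mir8112 (0.87), Lonrf1 (0.84), Lrg1 (0.80), Gm14403 (0.79) and Riok3 (0.79). Lrg1, which encodes a leucine-rich plasma glycoprotein of the acute phase, had 519 CPM in WT replicate 2 and 138 to 255 elsewhere. Over the 11 livers without WT replicate 2 the 5 highest were others, among them Emg1 (0.96), Tpt1 (0.95), Malsu1 (0.94) and Cdyl (0.93). Among the 10 genes, Saa1 and Saa2 correlated at 0.99 over 12 livers and 0.95 over 11, and Saa1 and Lcn2 at 0.76 and 0.79. Saa1 and Itih4 correlated at 0.05 and −0.75, Hp and Fgl1 at 0.41 and 0.06. These livers share genotype groups and a common scaling, so the coefficients describe the libraries only.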

How the data were processed

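Gene counts from total RNA of 12 livers, 3 per genotype, were analysed, with genotype and replicate number taken from the sample labels. The authors deposited raw counts per Ensembl gene, whole numbers without normalization. The submitters' processing notes name STAR, featureCounts and GRCm39, and the annotation release and the use of strand are not given in the sources used here, so reads of overlapping genes or near copies could have been assigned to either. The labels and the methods name different RNA extraction kits. No 2 libraries of a genotype were alike within sampling noise (chi-square per degree of freedom from 40.1 to 290).

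edgeR 4.0.16 in R 4.3.3 gave CPM with TMM factors, log2 CPM (prior count of 2), log2 fold changes and p-values (filterByExpr by genotype, glmQLFit and glmQLFTest, all 12 libraries, no covariates, common dispersion 0.0699), with Benjamini-Hochberg adjustment over 15070 genes at 0.05. DESeq2 1.42.0 was an alternative, and both were tested on simulated data. TPM, positions, coding sequences and promoters came from GENCODE vM39 and GRCm39, and 1018 identifiers without annotation held at most 0.101% of a library's counts. Sequences were aligned with Biopython 1.88, tables were handled with pandas 2.3.3 and numpy 2.4.6 (Python 3.11.15), and plots were drawn with matplotlib 3.10.9.

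The 10 genes, the gene lists and the markers were chosen with earlier results of these data known. Named beside the 10 were Mcl1 and Sting1, the 3 called genes with the largest change per list and comparison, Il6, Socs3, Stat3, Cebpb, Cebpd, Il1b, Tnf and Apcs, and the 5 genes most like the 10. Other named genes were chosen after their values were seen. Some genes that this rule names are not reported here. Alternatives were other scalings and filters, DESeq2, the groups compared only, a replicate block, Y-linked expression or small structured RNA share as covariate, leaving out small structured and mitochondrial RNAs, and leaving out each library. Depth limits the genes with few counts. Intervals rest on a spread estimated over all libraries in a fit, with at most 3 livers per genotype. Human samples and the circular DNA data of the study were not analysed here.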

Additional observations from a re-analysis of the deposited data

How the results depend on the processing

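With all 12 libraries, edgeR called 0 of the 10 genes in each of the 6 comparisons. With Y-linked expression as a covariate it called 1 (Orm3) between Mcl1Δhep and WT livers (10.2% of all genes). DESeq2 called 2 (Saa1, Saa2) in each of Sting1-/- against WT (0.326% of all genes) and Mcl1Δhep Sting1-/- against WT (4.72%). In both comparisons the edgeR differences of these 2 genes moved toward 0 without WT replicate 2. Leaving out 1 library at a time gave 0 to 2 calls between Mcl1Δhep and WT livers (2 without WT replicate 1, beside 17.4% of all genes, with Saa1 at −3.29 and adjusted p = 0.0345, and Saa2 at −3.57 and adjusted p = 0.0407, and 1 without Mcl1Δhep replicate 3, Orm3, beside 16.7%), 0 to 1 between Mcl1Δhep Sting1-/- and Mcl1Δhep livers (Lcn2 without Mcl1Δhep replicate 1, beside 20.2%) and 0 to 1 between Mcl1Δhep Sting1-/- and WT livers (Saa1 without WT replicate 1, beside 1.5%). Of 38 signs that turned when 1 library was left out, 13 turned without WT replicate 2 and at most 4 without any other library, and the cause was not tested.

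Of 1250 log2 fold changes of single genes under 21 alternatives, 1186 kept their direction and side of the threshold. Signs turned with the Y-linked covariate for Fgl1 (−0.070 in Mcl1Δhep and −0.0037 in Sting1-/- against WT), Hp (−0.16, Mcl1Δhep Sting1-/- against Mcl1Δhep), Saa1 (−0.042) and Saa2 (−0.017, Mcl1Δhep Sting1-/- against Sting1-/-), and in the interaction for Saa3 (−0.61), Orm1 (−0.10) and Itih4 (0.12). With small structured RNA share as a covariate it turned for Lcn2 (−1.0005) and Itih4 (0.0011) between Mcl1Δhep and WT, for Saa3 (0.30), Orm1 (0.051) and Itih4 (−0.065) between Mcl1Δhep Sting1-/- and Mcl1Δhep, and for Lcn2 in the interaction (1.86). With upper quartile scaling it turned for Hp (−0.054, Mcl1Δhep Sting1-/- against Mcl1Δhep).

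Leaving out 1 library at a time, the sign turned in the following ranges. Between Mcl1Δhep and WT these were Saa1 −3.32 to 0.88, Saa2 −3.57 to 1.31, Lcn2 −0.60 to 1.87, Orm2 −1.73 to 0.79 and Fgl1 −0.31 to 0.54. Between Mcl1Δhep Sting1-/- and Mcl1Δhep these were Saa3 −0.93 to 0.15, Orm1 −0.38 to 0.071, Orm3 −0.024 to 1.97, Hp −0.15 to 0.37 and Itih4 −0.073 to 0.29. Between Sting1-/- and WT these were Orm1 −0.55 to 0.073, Orm2 −1.82 to 0.70, Orm3 −0.75 to 0.28 and Fgl1 −0.24 to 0.61. Between Mcl1Δhep Sting1-/- and WT these were Orm2 −2.20 to 0.32, Hp −0.78 to 0.0083 and Fgl1 −0.61 to 0.30. In the interaction these were Saa1 −0.32 to 3.88, Saa2 −0.81 to 4.08, Saa3 −0.22 to 1.31, Lcn2 −1.26 to 1.21, Orm1 −0.23 to 0.40, Orm2 −1.17 to 1.35 and Itih4 −0.23 to 0.13.

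The replicate numbers did not pair the livers (correlations of deviations −0.54 to 0.25). With them as a replicate block, 0 of the 10 genes passed in any comparison, Lcn2 in the interaction was 0.025, and 2591 of all genes were called between Mcl1Δhep and WT livers against 3050 without the block.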
